A study of Homo sapiens with 2 samples.

Results

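The loci of SMAD2, SMAD3, SMAD4 and SMAD7 were described in a single list of peak summits from a Myocardin ChIP experiment. Members were the summits within each gene span or within 20 kb on either side of it, and 24 of the 105637 summits in the list qualified. Chromatin immunoprecipitation followed by sequencing recovers DNA bound by the antibody's target, and a summit is the position where a peak is highest. The cells were A549, a human lung adenocarcinoma line, with Myocardin (MYOCD) stably overexpressed from the vector pWPI. Chromatin from these same MYOCD-overexpressing cells, grown in DMEM with 10% fetal bovine serum, was precipitated with anti-Myocardin in 1 library and with IgG in 1 library. Both antibodies were therefore used on overexpressing cells, and cells without the transgene were not analysed here. No summit in the list is assigned to one antibody, which leaves no value of anti-Myocardin to set against IgG at any locus. There are no replicates, and the read depth behind a value is not given. The labels do not say whether the stable line was 1 clone or a pool.

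SMAD proteins carry the signal of the TGF-beta family from the cell surface to the nucleus. SMAD2 and SMAD3 are phosphorylated by activated type I receptors, join SMAD4, and regulate transcription together with other DNA-binding proteins, while SMAD7 is an inhibitory SMAD that is induced by the pathway and dampens it. Myocardin activates genes of smooth and cardiac muscle through the serum response factor, which binds CArG boxes, and it has also been described as a partner of SMAD3. In lung epithelial cells TGF-beta signalling is known for growth arrest and for epithelial-mesenchymal transition.

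Each start site had a summit near it, so the RefSeq promoters are shown for the outermost annotated start of each gene, from 250 bases before to 50 bases after it. Capitals mark the SMAD element CAGAC and the GC box GGGCGG, each searched on both strands (GTCTG and CCGCCC on the reverse).
SMAD2 (GRCh38.p14, chr18:47930823-47931122, minus strand): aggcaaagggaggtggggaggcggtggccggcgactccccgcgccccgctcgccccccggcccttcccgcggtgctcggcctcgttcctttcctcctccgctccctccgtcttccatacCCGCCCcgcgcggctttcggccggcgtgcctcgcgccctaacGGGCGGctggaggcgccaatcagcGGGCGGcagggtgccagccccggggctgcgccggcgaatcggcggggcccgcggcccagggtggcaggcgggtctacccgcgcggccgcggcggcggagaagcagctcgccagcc
SMAD3 (GRCh38.p14, chr15:67065352-67065651, plus strand): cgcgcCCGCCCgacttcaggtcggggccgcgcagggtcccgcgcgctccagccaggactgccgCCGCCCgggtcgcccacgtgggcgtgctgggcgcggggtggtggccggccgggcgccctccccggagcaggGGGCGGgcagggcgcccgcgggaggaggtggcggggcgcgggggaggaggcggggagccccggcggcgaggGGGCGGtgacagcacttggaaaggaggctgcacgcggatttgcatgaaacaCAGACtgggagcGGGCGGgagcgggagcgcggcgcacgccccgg
SMAD4 (GRCh38.p14, chr18:51029963-51030262, plus strand): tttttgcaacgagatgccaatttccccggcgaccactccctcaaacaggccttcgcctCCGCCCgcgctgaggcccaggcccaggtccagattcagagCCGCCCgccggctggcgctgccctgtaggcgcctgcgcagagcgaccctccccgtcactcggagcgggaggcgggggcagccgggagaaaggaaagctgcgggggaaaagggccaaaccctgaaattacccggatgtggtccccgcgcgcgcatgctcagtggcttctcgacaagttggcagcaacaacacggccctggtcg
SMAD7 (GRCh38.p14, chr18:48950916-48951215, minus strand): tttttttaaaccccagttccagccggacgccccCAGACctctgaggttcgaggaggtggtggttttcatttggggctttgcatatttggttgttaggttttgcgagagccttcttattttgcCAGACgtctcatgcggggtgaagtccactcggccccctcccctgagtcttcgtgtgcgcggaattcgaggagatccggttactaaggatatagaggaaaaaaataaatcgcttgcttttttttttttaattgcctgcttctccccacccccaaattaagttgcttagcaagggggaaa
The promoter positions belong to GRCh38.p14 and cannot be compared with the summit positions, which are in GRCh37. RefSeq lists 2 starts for SMAD2, 5 for SMAD3, 1 for SMAD4 and 3 for SMAD7. The SMAD4 gene is 1 base longer in RefSeq than the span used here. SMAD7 is longer by 254 bases, SMAD3 by 229 and SMAD2 by 24451. The outermost starts and the 3' ends therefore need not be the same, and where the extra bases lie was not determined. The SMAD7 promoter held CAGAC at bases 34 to 38 and at bases 123 to 127 of the printed run, and SMAD3 held it once, at bases 257 to 261. Among 35116 promoters of this length, 45.3% hold CAGAC or its reverse. The GC box was found 3 times in SMAD2, 5 times in SMAD3 and 2 times in SMAD4 and not in SMAD7, and 45.0% of the promoters hold it. Over all 11 RefSeq starts of these genes, 5 held CAGAC or its reverse and 4 held the GC box. Neither the palindromic SMAD element GTCTAGAC (0.202% of promoters) nor a CArG box (1.29% of promoters) occurred in the 4 printed windows. The same held for such windows at the other RefSeq starts of these genes. Sequence outside these windows was not searched, so elements elsewhere near the start sites, of SMAD7 or the other genes, could have been missed. The printed windows of SMAD2, SMAD3 and SMAD4 contained 78.7%, 80.3% and 66.7% G and C, and that of SMAD7 contained 48.3%, against a median of 58.7% over all promoters.

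All 4 start sites had a summit within 1 kb. The start site here is the 5' end of the gene span on its strand. At SMAD4, the common partner of the receptor-activated SMADs, the summit at chr18:48556788 lay 205 bp downstream of the start, and 0.914% of evenly spaced positions on chromosome 18 lay as close to any summit. At SMAD7 the nearest summit, chr18:46476685, lay 396 bp downstream of the start (1.78% of positions). At SMAD3 it was chr15:67358902, 707 bp downstream (6.53% of positions on chromosome 15), and at SMAD2 it was chr18:45457887, 957 bp upstream (4.10% of positions). For comparison, a summit lay within 1 kb of 4.27% of positions on chromosome 18, of 9.07% on chromosome 15 and of 7.18% over all autosomes. These shares describe positions of every kind. Start sites of other genes were not located in GRCh37 here, so it was not tested whether the SMAD genes differ from other genes in this respect.

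**Figure D1:**
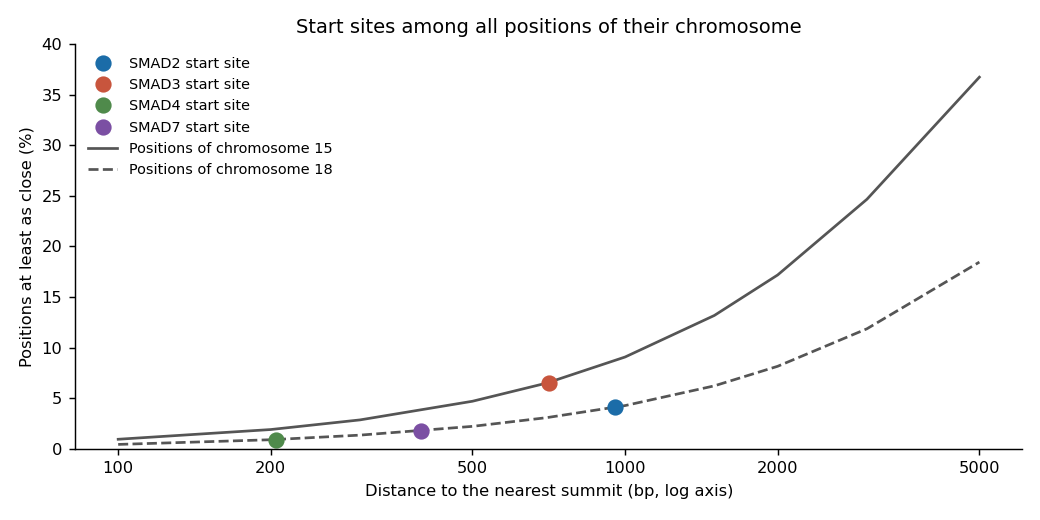
Distance from each SMAD start site to its nearest summit (points; x axis in bp, logarithmic) and the percent of evenly spaced positions of the same chromosome at least as close (y axis; lines for all positions of chromosomes 15 and 18). Each point lies on the line of its own chromosome by construction, since both come from the same positions. All points lie left of 1000 bp, from 205 bp for SMAD4 to 957 bp for SMAD2.

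The start sites of SMAD3 and SMAD7 each lay between a pair of summits. At SMAD3, the summits chr15:67357456 (739 bp upstream, score 7.84) and chr15:67358902 (707 bp downstream, score 13.3) were 1446 bp apart. At SMAD7, chr18:46478006 (925 bp upstream, score 7.90) and chr18:46476685 (396 bp downstream, score 9.58) were 1321 bp apart. In both pairs the downstream summit had the higher score. A summit within 1 kb on both sides was found at 0.386% of positions on chromosome 15, 0.184% on chromosome 18 and 0.291% over all autosomes. Gaps of 500 to 1500 bp made up 9.11% of all gaps between adjacent summits on chromosome 15 and 9.03% on chromosome 18, so such spacing was also found at many other places. SMAD2 and SMAD4 each had a single summit within 1 kb. Peak widths are not in the list, and whether a pair is 1 broad peak or 2 separate ones could not be told apart.

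**Figure D2:**
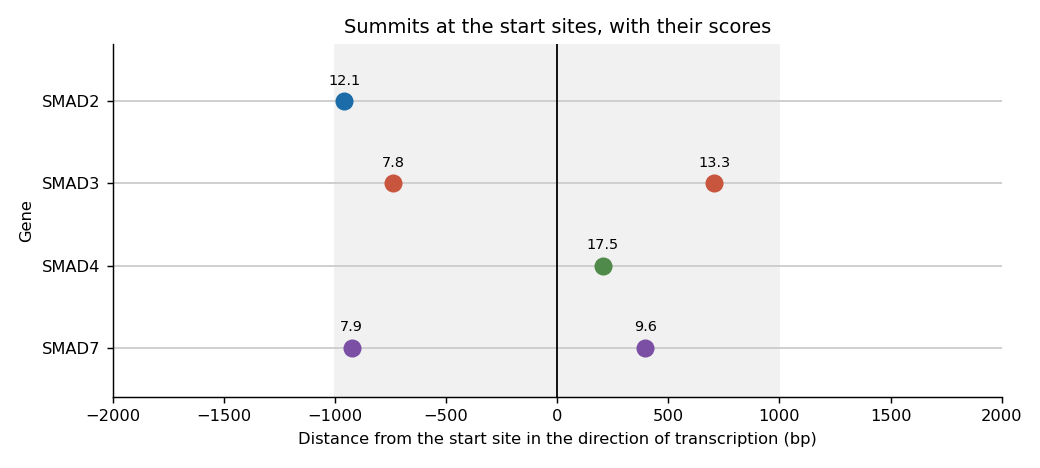
Summits within 2000 bp of the start sites of SMAD2, SMAD3, SMAD4 and SMAD7 (x axis in bp in the direction of transcription; the number over each point is its score; the shaded band reaches 1000 bp to each side). SMAD3 and SMAD7 have a summit on both sides of the start, SMAD2 has one upstream and SMAD4 one downstream.

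The 4 windows differ in length, so their summits are given per 100 kb. SMAD7, the inhibitory SMAD, had the highest value, with 7 summits in its window of 70.9 kb (9.88 per 100 kb, exact Poisson 95% interval 3.97 to 20.4). SMAD3 followed with 12 summits in 169.3 kb (7.09 per 100 kb, 3.66 to 12.4). SMAD2, the other receptor-activated SMAD, had 3 summits in 137.5 kb (2.18 per 100 kb, 0.450 to 6.38), and SMAD4 had 2 summits in 94.8 kb (2.11 per 100 kb, 0.255 to 7.62). These intervals cover counting error only, treat summits as independent, and overlap between all 4 loci.

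Every window of the same length on the same chromosome, taken in steps of 10 kb, gave the background for these counts. These windows cover sequence of every kind, and windows around other genes were not compared. The SMAD7 count of 7 was reached by 3.70% of 7468 windows on chromosome 18, whose median was 1 summit and whose 5th to 95th percentiles were 0 and 6. The SMAD2 count was reached by 42.7% of windows (median 2) and the SMAD4 count by 47.7% (median 1), which is the middle of the range on chromosome 18. On chromosome 15, 27.0% of 8225 windows held as many as the 12 summits of SMAD3, with a median of 7 and 5th to 95th percentiles of 1 and 19. Set against windows of all autosomes, the SMAD7 share was 10.5%, and it was 7.16% for the gene span without flanks. The SMAD3 share was 17.9% over all autosomes and 41.7% among windows within 5 Mb of the gene, a denser part of chromosome 15 with a median of 11 summits per window.

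**Figure D3:**
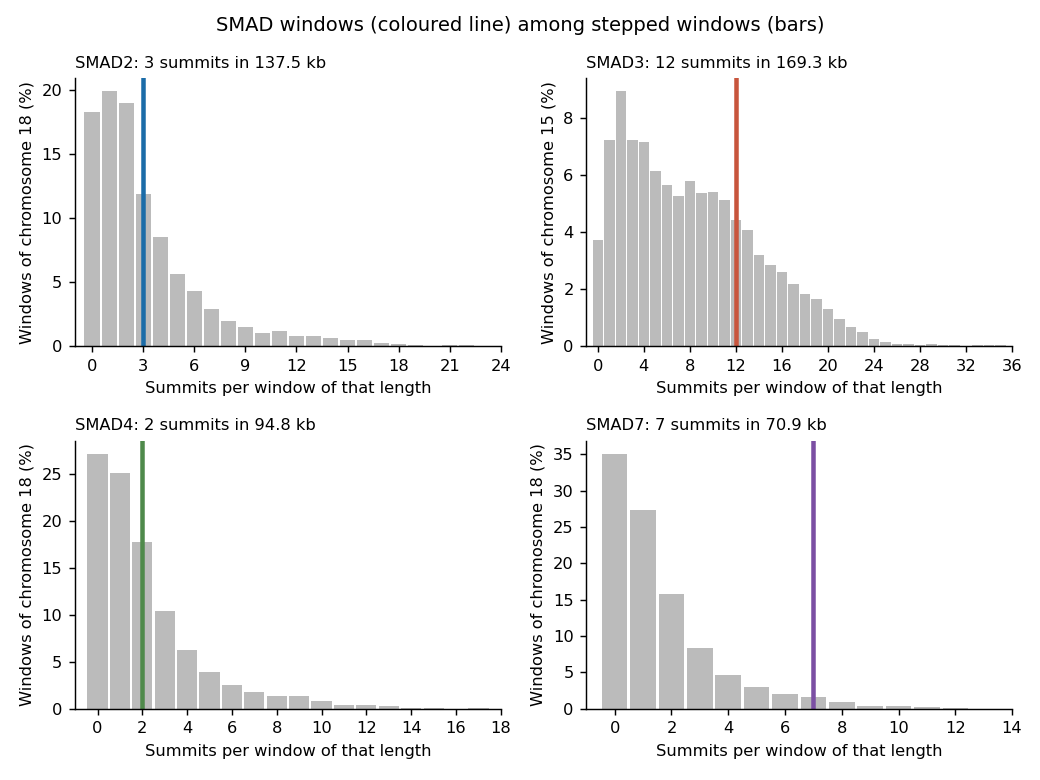
Number of summits per window (x axis) and the percent of stepped windows of equal length on the same chromosome with that number (bars, y axis); the coloured line marks the SMAD window. The SMAD7 line at 7 lies in the upper tail, above the 95th percentile of 6, while the lines of SMAD2 at 3 and SMAD4 at 2 lie near the medians of 2 and 1.

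SMAD2 held the strongest of all member summits. The summit at chr18:45423078 lay in the gene body, 33.9 kb downstream of the start, with a score of 65.1. Scores come from the authors' peak caller without a stated unit and serve only as ranks. This summit ranked 2 among the 1696 summits of chromosome 18, behind one with a score of 230 at chr18:112274, and 92 in the whole list. The median score on chromosome 18 was 8.28. The nearest neighbour of this SMAD2 summit was 34.8 kb away. The RefSeq SMAD2 gene is 24451 bases longer than the span used here, and its ends were not placed in GRCh37. Of the other summits of SMAD2, chr18:45354295 lay 5171 bp beyond the 3' end of that span, with a score of 18.9. The remaining one was chr18:45457887 at the start, with a score of 12.1. That last one lay just under 12.2, the score above which the top 25% of the list lie. With 2 of its 3 summits in that top range, SMAD2 had as many as 15.8% of the windows of its length. Without flanks 1 such summit was left, a number reached by 36.9% of windows. The longest stretch without a summit that touched the SMAD2 body ran for 68.8 kb from chr18:45354295 to chr18:45423078 and took up 65.3% of the body. On chromosome 18, 19.1% of stretches between adjacent summits were at least this long, and these held 65.7% of the sequence. Positions inside the SMAD2 body were not assigned to exons or introns.

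SMAD3 had summits of moderate score in both flanks and in the gene body. From 5' to 3', 3 lay in the upstream flank, 7 in the gene body and 2 in the downstream flank, with scores between 6.08 and 13.3 and a median of 9.02. The top range held 3 of them, all in the gene body: chr15:67358902 near the start, chr15:67413669 at 55.5 kb (score 12.8) and chr15:67481887 at 123.7 kb (score 13.3). Of the windows of that length on chromosome 15, 33.7% held at least 3 such summits. The strongest, chr15:67481887, lay 5646 bp before the 3' end and ranked 788 among the 3951 summits of its chromosome. The remaining body summits lay at 22.8, 28.4, 99.6 and 115.5 kb with scores of 6.08, 7.63, 11.5 and 9.98. Between chr15:67413669 and chr15:67457752 a stretch of 44.1 kb, or 34.1% of the gene body, held none. On chromosome 15, 10.9% of stretches between adjacent summits were at least this long, and these held 47.4% of the sequence. The further starts that RefSeq lists for SMAD3 were not placed in GRCh37, and the body summits were not compared with them. The next protein-coding gene downstream in RefSeq is AAGAB, on whose side the summits chr15:67504397 and chr15:67507114 lie, and the next upstream is SMAD6, which encodes the other inhibitory SMAD.

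SMAD4 was nearly empty apart from its start. The summit 205 bp into the gene had a score of 17.5 and ranked 103 on chromosome 18, where 6.07% of summits scored as high. It was the only SMAD4 summit in the top range, a count reached by 35.8% of windows. The other, chr18:48550488, lay 6095 bp upstream with a score of 6.49, a value carried by 3569 summits of the list. From the start summit to the next one at chr18:48636725 there was a stretch of 79.9 kb without a summit, which took up 99.6% of the gene body. Stretches at least this long made up 15.7% of those between adjacent summits on chromosome 18 and 60.0% of the sequence they cover, so such emptiness is common on this chromosome. With flanks of 50 kb the SMAD4 count became 6, which 19.8% of windows reached.

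At SMAD7 no summit had a high score. Its 7 summits scored between 4.88 and 9.58 with a median of 5.81, and none was in the top range, as in 71.2% of the windows of its length. The strongest, 396 bp downstream of the start, ranked 603 on chromosome 18. Within the gene body the other summits were chr18:46460077 at 17.0 kb (score 7.87) and chr18:46447080 at 30001 bp (score 5.66), the last of them 857 bp before the 3' end. The downstream flank held chr18:46441456 with a score of 5.81 and chr18:46428544 with a score of 4.98, and the upstream flank held chr18:46487613, 10.5 kb before the start, with a score of 4.88. The nearest summit of the top range lay 129680 bp from the SMAD7 start. In all, 6 of the 7 scored below the chromosome 18 median.

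**Figure D4:**
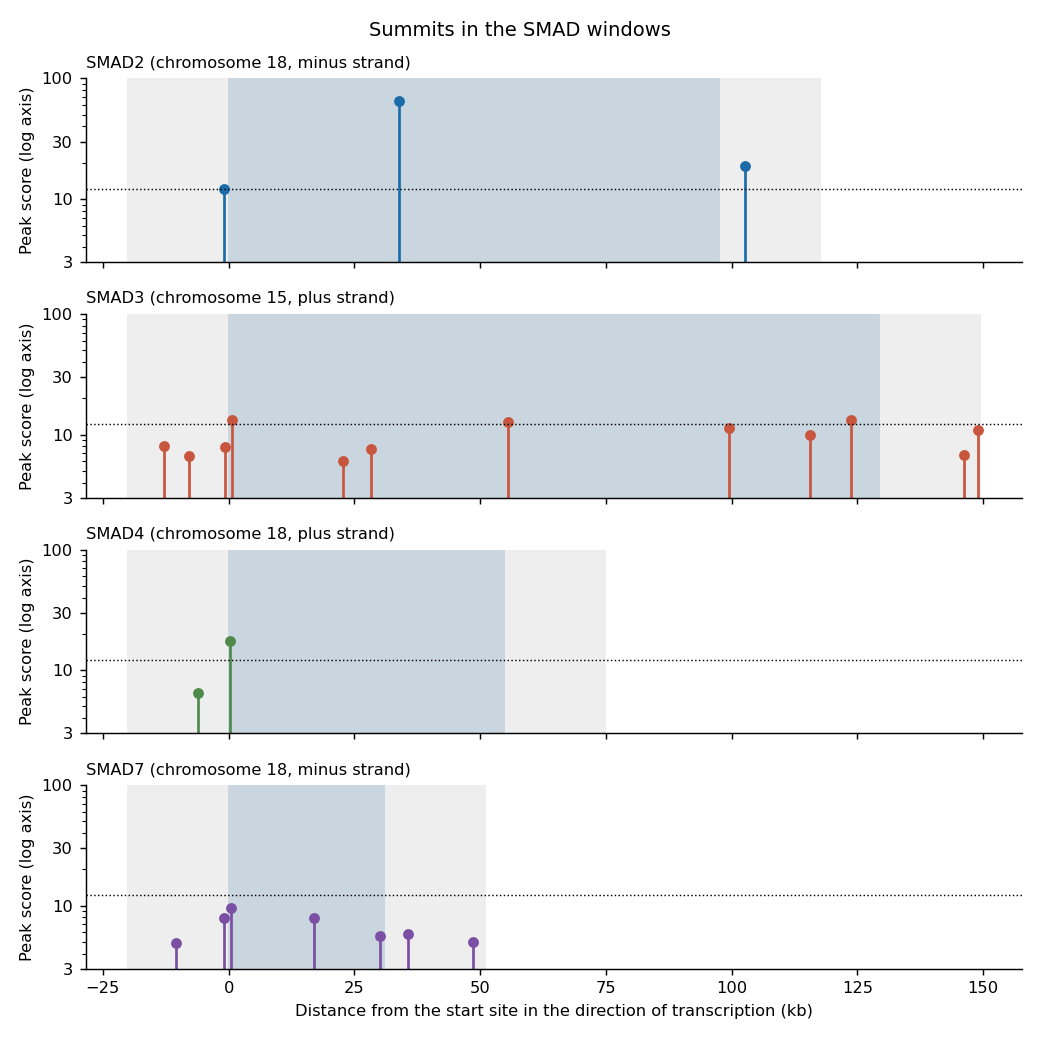
Summits (points on stems) along each SMAD window by distance from the start site in kb (x axis) and peak score (y axis, logarithmic); dark shading marks the gene body, light shading the 20 kb flanks, and the dotted line the score of 12.2 that bounds the top 25% of the list. SMAD2 has 3 summits that include the highest at 65.1, SMAD3 has 12 spread over the locus, SMAD4 has 2 at or before its start, and SMAD7 has 7 that all lie under the dotted line.

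Together the scores of the 24 member summits did not stand apart from the list. Their median was 7.98, against 8.53 over chromosome 15, 8.28 over chromosome 18 and 8.50 over the list. The top range held 6 of the 24, or 25% (exact Clopper-Pearson 95% interval 9.77 to 46.7), against 25.2% of summits on chromosome 15, 22.4% on chromosome 18 and, because of tied scores at the limit, 26.3% of the list. Summits within 1 kb of a start site scored between 7.84 and 17.5 (n = 6, median 10.8), and those elsewhere in the windows between 4.88 and 65.1 (n = 18, median 7.75). At SMAD4 and SMAD7 the strongest summit was the one nearest the start, at SMAD3 the summit at the start was second by a narrow margin (13.27 against 13.33), and at SMAD2 the summit at the start was the weakest. Per 10 kb, the gene bodies held 0.103 summits at SMAD2, 0.541 at SMAD3, 0.182 at SMAD4 and 0.972 at SMAD7, against 0.500, 1.25, 0.250 and 1 in their flanks. The body was lower in each of the 4, but with so few summits the Poisson intervals of body and flanks overlapped at every gene. With flanks of 50 kb the SMAD7 body was higher, at 1.22 times its flanks against 0.972 times. Body and flank follow the spans used here, and the SMAD2 span is 24451 bases shorter than the RefSeq gene.

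**Figure D5:**
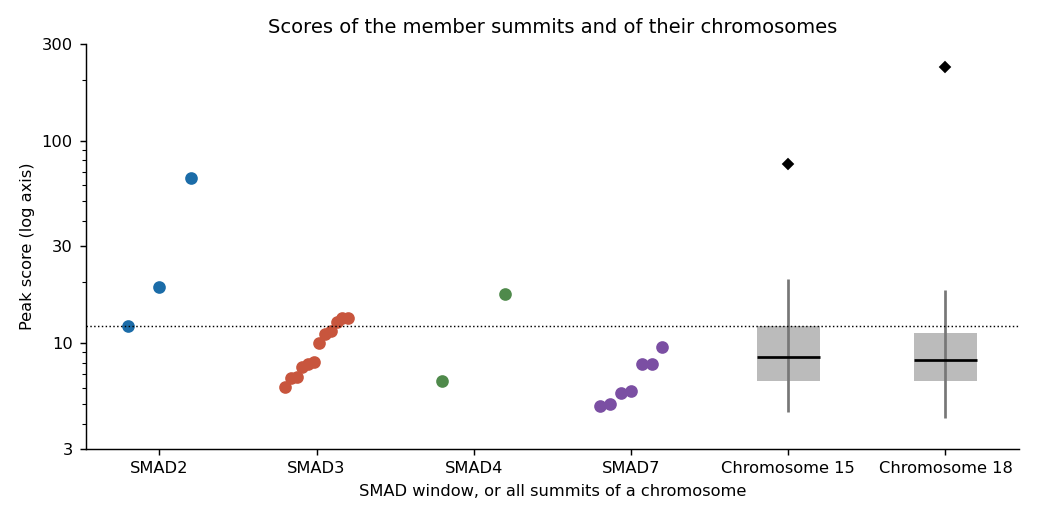
Peak scores (y axis, logarithmic) of the summits in each SMAD window (points) and of all summits on chromosomes 15 and 18 (box from the 25th to the 75th percentile, black line at the median, whisker from the 5th to the 95th percentile, diamond at the highest score); the dotted line is the score of 12.2 that bounds the top 25% of the list. The highest SMAD2 point is at 65.1, all SMAD7 points lie below 10, and the medians of chromosomes 15 and 18 are 8.53 and 8.28.

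Membership depends on the 20 kb limit. The summit closest to a window edge on the inside was chr15:67507114, 419 bp within the SMAD3 window, with a score of 11.0. The closest on the outside was chr18:45337659, 1807 bp beyond the SMAD2 window on its downstream side, with a score of 6.49. For SMAD7 the nearest excluded summits lay 5908 and 5566 bp beyond the edges with scores of 8.56 and 8.64, and for SMAD4 the nearest lay 5314 bp beyond with a score of 11.6.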

How the data were processed

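The authors deposited a single list of summits, 1 bp in width, and a score for every summit, per the file headers. The submitters' processing notes name CASAVA 1.4 and the assemblies mm9 and GRCh38.p12. Not given in the sources used here are the caller's threshold, the aligner, the treatment of PCR duplicates and whether IgG served as a control. No summit lay past a chromosome end of GRCh37 (hg19), while 1093 did on GRCh38, 1667 on hg18 and 13627 on mm9. A further 6648 lay on chromosomes that mm9 does not have. Positions are therefore printed 1-based in GRCh37. No column of per-sample values was left out (0 columns).

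Gene spans and strands were fixed in GRCh37 with the choice of genes, and no other GRCh37 annotation or sequence was used. Members and lists were chosen with earlier results of these data known, and the pairs at start sites, the stretches without summits and the groups of scores after their values were seen. The strongest summit of each window, the one nearest each start, and all in the top 25% of scores are named by rule; other summits are named for completeness. A list of further pathway genes was planned but not used, for want of GRCh37 positions.

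Windows of equal length were stepped by 10 kb, and positions by 1 kb, from the first summit of a chromosome to its last, without stretches of at least 1 Mb that hold no summit. These stepped windows replace random ones and give no p-value; with 1 list and 1 library per antibody no test across samples was possible. Counting was checked on 20 simulated lists per window length. Promoter sequences and gene order came from RefSeq (GRCh38.p14), in which all 4 genes matched by symbol. Python 3.11.15, numpy 2.4.6, pandas 2.3.3 and scipy 1.17.1 were used. Alternatives were other flanks, score limits, backgrounds and merged summits.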

Additional observations from a re-analysis of the deposited data

How the results depend on the processing

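Of 68 alternatives over 20 values, 34 stayed within the interval of the value (taken over the number of windows that do not overlap, or over the summits) or left it equal, and 34 moved. Some of the 34 that stayed could not move. For summits of the top 25% of scores SMAD7 held 0, so its share was 100% under every setting. With flanks of 50 kb the ratio of summits per kb in the SMAD7 body over its flanks passed from 0.972 to 1.22, within an interval (0.142 to 5.75) that includes 1. The share of windows with at least as many summits moved for SMAD2, SMAD3, SMAD4 and SMAD7 to 73.7%, 42.4%, 57.3% and 7.16% without flanks, and to 63.2%, 17.9%, 65.9% and 10.5% against all autosomes. Counting the top 25% of scores gave 15.8%, 33.7%, 35.8% and, since SMAD7 then held no summit, 100%. With flanks of 10 kb it was 37.1%, 36.3% and 39.3% for SMAD2, SMAD3 and SMAD4, and without scores shared by at least 150 summits 23.7%, 19.7% and 42.6%. Flanks of 50 kb moved SMAD4 to 19.8%, and windows within 5 Mb moved SMAD3 to 41.7%. Merging summits within 1.5 kb, or leaving no window out, moved none of the 4. For summits of the top 25% of scores, the share for SMAD2, SMAD3 and SMAD4 was 36.9%, 23.5% and 22.97% without flanks, and 36.2%, 24.6% and 54.9% against all autosomes. Over the top 10% of scores it was 2.15%, 100% (SMAD3 held none) and 12.5%, and with flanks of 50 kb 25.5% for SMAD2 and 50.4% for SMAD4. The strongest SMAD3 score became 16.6 with flanks of 50 kb. Over the top 25% of scores the nearest summit was 33852 bp from the SMAD2 start and 129680 bp from the SMAD7 start, while SMAD3 and SMAD4 kept theirs. With other flanks or score limits the windows compared change along with the summits counted, and some shares moved with the same number of member summits; the cause was not tested. No replicate could be left out with 1 library per antibody. No paired analysis was possible because the columns of the list carry no sample. Without read counts the limit set by depth is unknown.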

Other observations

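Between 20 and 50 kb from the genes lay 12 further summits. Downstream of SMAD4, after the long empty stretch, 4 summits stood together at 25.3, 26.9, 32.2 and 36.1 kb beyond the 3' end, with scores of 11.6, 9.91, 7.49 and 10.7. Upstream of SMAD3 the summit chr15:67326129, 32.1 kb before the start, scored 16.6, above every summit inside the SMAD3 window. SMAD7 had 3 further summits downstream, with scores of 5.55, 4.34 and 8.56, and 1 upstream with a score of 8.64, and the last 2 values lie above the chromosome 18 median of 8.28.

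Some scores recur in the list, and member summits were compared with their own chromosome for them. In the SMAD3 window 0 of 12 summits had a score shared by at least 150 summits (exact Clopper-Pearson 95% interval 0 to 26.5%), against 24.5% of summits on chromosome 15. In the SMAD2, SMAD4 and SMAD7 windows 1 of 12 did (8.33%, interval 0.211 to 38.5%), against 39.8% on chromosome 18. The first interval includes the share of its chromosome, and the second ends just below it. Both intervals treat summits as independent, and the groups were formed after the values were seen, so no difference is read from them. The median distance to the nearest summit was 5.22 kb in the SMAD3 window, against 6.55 kb on chromosome 15, and 7.26 kb in the other 3 windows, against 9.07 kb on chromosome 18. The part of this spacing in the shares was not tested.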
